A study of Rattus norvegicus with 12 samples.

Results

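The mRNAs of the constitutive proteasome subunits were followed across rat livers under a normal diet, a fat-rich diet and 2 treatments. Members were all probe sets annotated to a single symbol of the Psma, Psmb, Psmc or Psmd series, with the inducible subunits Psmb8, Psmb9 and Psmb10 left out. This gave 44 of 31099 probe sets and 33 of 14218 genes, namely 13 genes of the core (Psma, Psmb), 6 of the ATPase ring (Psmc) and 14 of the lid or base (Psmd). The values are log2 microarray signals from the livers of Sprague-Dawley rats, with 1 array per animal. The labels give 3 animals to each of 4 groups. The first ate a normal diet and the others a high-fat diet (HFD), either alone, with QHD (Qushi Huayu Decoction, a herbal medicine from China) or with GC (the plant compounds geniposide and chlorogenic acid, mixed). QHD was given by daily gavage at 0.1 ml/kg for 4 weeks on top of the HFD, after 4 weeks of the HFD alone, and GC on the same schedule at a dose that the labels do not state. All groups are titled 4 weeks, and how long the HFD group had eaten its diet in total is not stated in the labels.

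The proteasome is the protease that degrades ubiquitin-tagged proteins in the cytosol and nucleus. Its barrel-shaped core holds the proteolytic sites inside rings of alpha (Psma) and beta (Psmb) subunits, and a regulatory particle caps it. In that particle a ring of ATPases (Psmc) unfolds substrates, and the non-ATPase subunits (Psmd) of the base and lid bind and remove ubiquitin. In many cells the subunit genes are induced together by the transcription factor NRF1 (Nfe2l1) through antioxidant response elements in their promoters. The liver makes and degrades large amounts of protein, and mice without Nfe2l1 in their hepatocytes are known to develop fatty liver.

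The promoters printed here belong to Psmb2, Psmb5, Psmb3 and Psmd13, which had some of the smallest p-values in QHD against HFD, and to Psmd9. Psmd9 moved the other way, and none of these genes passed in that comparison. Psma4 had a smaller limma p there than Psmb2 (0.00795 against 0.0116). Its promoter is not printed. It held no match to the antioxidant response element, and neither did those of Psmb3 and Psmd13, which are printed. The printed promoters do not show how often the element occurs among the members. Each run is the gene's strand from 250 bases before to 50 bases after the RefSeq start in build GRCr8, and capitals mark matches to the antioxidant response element letters TGACNNNGC on either strand. The locations are chr5:144254808-144255107 (plus strand) for Psmb2, chr15:32047330-32047629 (minus) for Psmb5, chr12:39018215-39018514 (minus) for Psmd9, chr10:83193537-83193836 (plus) for Psmb3 and chr1:205393998-205394297 (plus) for Psmd13.

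Psmb2: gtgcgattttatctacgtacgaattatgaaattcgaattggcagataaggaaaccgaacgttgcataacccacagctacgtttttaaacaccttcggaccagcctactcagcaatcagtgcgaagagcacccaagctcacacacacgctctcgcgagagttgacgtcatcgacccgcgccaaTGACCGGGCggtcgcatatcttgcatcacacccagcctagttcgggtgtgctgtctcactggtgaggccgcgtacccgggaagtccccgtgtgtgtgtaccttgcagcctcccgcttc

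Psmb5: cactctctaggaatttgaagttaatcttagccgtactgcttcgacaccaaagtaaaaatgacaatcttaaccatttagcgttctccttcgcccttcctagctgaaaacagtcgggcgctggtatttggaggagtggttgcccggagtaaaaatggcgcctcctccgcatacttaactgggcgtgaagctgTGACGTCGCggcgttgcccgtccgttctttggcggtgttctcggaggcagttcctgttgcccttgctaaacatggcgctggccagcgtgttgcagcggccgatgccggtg

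Psmd9: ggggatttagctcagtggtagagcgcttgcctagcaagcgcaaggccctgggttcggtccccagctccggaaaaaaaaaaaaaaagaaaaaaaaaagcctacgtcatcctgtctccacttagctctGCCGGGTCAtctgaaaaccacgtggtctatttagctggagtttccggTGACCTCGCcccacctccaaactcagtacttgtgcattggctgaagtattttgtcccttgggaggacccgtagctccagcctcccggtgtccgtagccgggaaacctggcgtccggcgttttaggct

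Psmb3: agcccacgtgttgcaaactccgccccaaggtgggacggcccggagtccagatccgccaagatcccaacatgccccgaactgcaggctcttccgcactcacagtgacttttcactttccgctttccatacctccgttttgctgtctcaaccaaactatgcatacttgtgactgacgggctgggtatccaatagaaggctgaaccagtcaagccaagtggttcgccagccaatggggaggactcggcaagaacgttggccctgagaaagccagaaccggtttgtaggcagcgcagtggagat

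Psmd13: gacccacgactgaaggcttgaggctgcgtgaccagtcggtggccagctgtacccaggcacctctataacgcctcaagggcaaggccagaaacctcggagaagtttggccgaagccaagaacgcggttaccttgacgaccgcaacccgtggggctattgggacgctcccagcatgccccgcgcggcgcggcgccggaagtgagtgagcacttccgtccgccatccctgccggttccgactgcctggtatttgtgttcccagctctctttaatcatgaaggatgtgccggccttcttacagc

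RefSeq's promoter table held 29 of the 33 members, all but Psma7, Psmd6, Psmd12 and Psmd14. The letters TGACNNNGC were found on either strand in 6 of these 29 promoters (20.7%), against 12.2% of all 27457 promoters of the same length. The 6 were Psma3, Psmb2, Psmb5, Psmd1, Psmd3 and Psmd9, and none of the 6 ATPase promoters held them. In Psmb2 the match began at position -68 from the start and in Psmb5 at -60, both on the gene's strand. In Psmb2 the last base of a CCAAT match is the first base of that element. CCAAT was found in 16 of 29 member promoters (55.2%) against 37.7% of all, and in 9 of the 12 core promoters. CCGGAAG, the letters of an ETS site, stood in 10 of 29 (34.5%) against 9.22% of all. The motifs were chosen with the expression values known, and a match is only a description of letters.

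The array labelled normal diet 3 stood apart from the other 11, with a correlation of at most 0.466 to any of them over the genes tested, against 0.93 to 0.981 among the 11. Its proteasome members lay at a median of 0.55 log2 below their mean on the other arrays (deviation -0.55), and 26 of 33 were lower there than on every other array. Its median over 14 hepatocyte markers was 6.23, against 14.60 to 14.98 on the others, and over 8 adipocyte markers 14.12, against 6.17 to 7.83, so its markers go against the label of liver. It was left out, and values with it are given where a result turns on it. No hepatocyte marker was at 0 on the 11 arrays. The tissue is bulk liver, so fewer cells of a type and less RNA per cell cannot be told apart.

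All 33 member genes passed the filter on low signal, and within groups they were steady. The median pooled SD within groups was 0.108 log2 for the members and 0.202 for all 9459 genes tested. The members' mean signals ran from 9.84 (Psma3) to 13.66 (Psma6), against a filter at 6.66, and genes of matched signal were not compared. Psmc4 and Psmc2, ATPases of the ring, and Psmb4, a beta subunit, had the smallest spread, 0.06 each. Psmb7, which carries the trypsin-like site, had the widest, with a pooled SD of 0.30 and a range of 1.88-fold over the 11 arrays. The members lie on 15 chromosomes, and RefSeq names 33 pseudogenes for 14 of them, whose share in the signals was not tested.

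**Figure D1:**
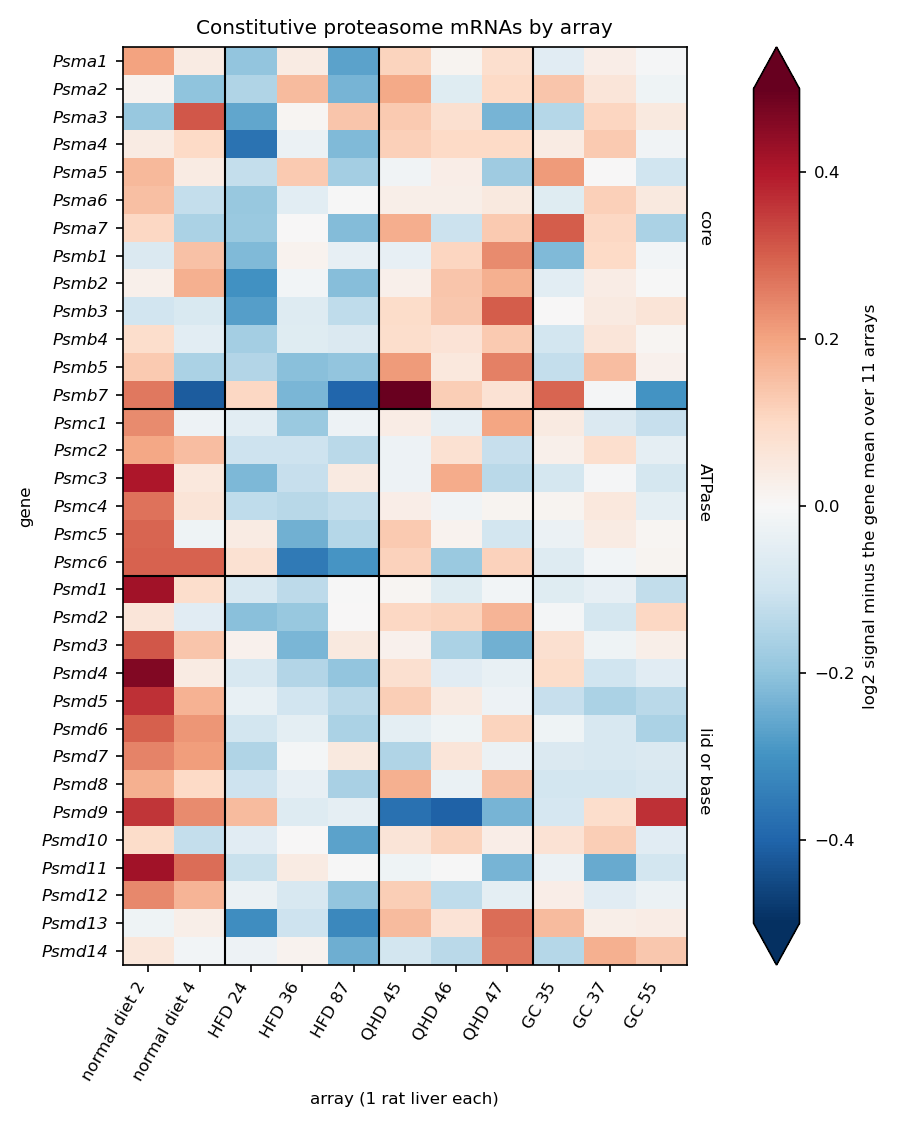
Rows are the 33 subunit genes by class and columns the 11 arrays, with 1 rat liver each. Colour is the log2 signal minus the gene's mean over these arrays, cut at 0.5 to either side. The 2 normal diet columns are mostly red among ATPase and lid or base genes and the 3 HFD columns mostly blue.

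On the HFD, nearly every constitutive subunit read lower than on the normal diet, though none passed the test. The change was below 0 in 32 of 33 genes, against 45% of all genes tested, with a median of -0.25 against 0.03 for all genes. In 19 genes (57.6%) every HFD array was below both normal diet arrays, against 10.8% of all genes, and 0 were entirely above, against 17.5%. After Benjamini-Hochberg adjustment over all genes with limma, 0 members passed, against 0.529% of all genes, and 16 had an unadjusted p under 0.05 in the lower direction, against 4.8% of all genes, and 0 in the higher direction, against 9.62%. With normal diet 3 included, the median was -0.02, 17 genes were below 0 and 2 stood apart, against 3.12% of all genes. Leaving out each array in turn gave member medians of -0.31 to -0.19. Leaving out an array can only keep or raise the count that stands apart, so that count is no check on the result.

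By class, the median HFD change was -0.12 for the core, -0.29 for the ATPases and -0.28 for the lid or base. Every HFD array was below both normal diet arrays in 3 of 13 core genes (23.1%), 5 of 6 ATPases (83.3%) and 11 of 14 lid or base genes (78.6%). The share over all genes tested was 10.8%. Only Psma2, an alpha subunit, was above 0, at 0.02.

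Psmc6, an ATPase of the ring, read 11.87 and 11.87 on normal diet arrays 2 and 4, and 11.65, 11.22 and 11.28 on HFD arrays 24, 36 and 87. The HFD arrays were all lower, and its change was the most negative of the members, -0.49 ± 0.14 (SE, adjusted p = 0.13). Its QHD values were 11.69, 11.39 and 11.69 on arrays 45, 46 and 47, and its GC values 11.51, 11.56 and 11.59 on arrays 35, 37 and 55. Both treated groups lay between the normal diet arrays and the lowest HFD array. All these values come from the Psmc6 probe set with the highest mean. In HFD against normal its next brightest probe set gave -0.41 ± 0.16, also without overlap. The dimmest gave -0.03 ± 0.16, with groups that overlapped.

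Psmc2, another ATPase, read 12.77 and 12.73 on the normal diet and 12.47, 12.47 and 12.44 on the HFD, in the same order of arrays. The groups did not overlap, with a change of -0.29 ± 0.09 (adjusted p = 0.159). With QHD it read 12.55, 12.65 and 12.46, and with GC 12.60, 12.66 and 12.53, so that all GC arrays were above all HFD arrays (0.14 ± 0.08, adjusted p = 0.656). Psmc4, also of the ring, read 11.85 and 11.64 on the normal diet, 11.45, 11.44 and 11.46 on the HFD, 11.61, 11.56 and 11.59 with QHD and 11.59, 11.63 and 11.53 with GC. The HFD arrays were the lowest of all, by -0.30 ± 0.09 against the normal diet (adjusted p = 0.167).

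Psmd6, a lid scaffold subunit, had the smallest adjusted p of the members in HFD against normal. Its values were 12.03 and 11.95 on the normal diet, 11.64, 11.68 and 11.57 on the HFD, 11.68, 11.71 and 11.84 with QHD and 11.71, 11.65 and 11.57 with GC. All 9 HFD-fed arrays lay below both normal diet arrays, with a change of -0.36 ± 0.10 on the HFD (adjusted p = 0.106). Psmd11, a lid subunit that holds the core and the regulatory particle together, read 12.54 and 12.40 on the normal diet, 12.01, 12.16 and 12.12 on the HFD, 12.10, 12.12 and 11.89 with QHD and 12.09, 11.87 and 12.03 with GC. Again every HFD-fed array was below the normal diet arrays, by -0.37 ± 0.11 on the HFD alone (adjusted p = 0.147). Psmd5, a chaperone that helps assemble the base, read 11.20 and 11.01 on the normal diet, 10.80, 10.74 and 10.7 on the HFD, 10.96, 10.88 and 10.81 with QHD and 10.72, 10.68 and 10.7 with GC. The HFD change was -0.36 ± 0.10 (adjusted p = 0.125).

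**Figure D2:**
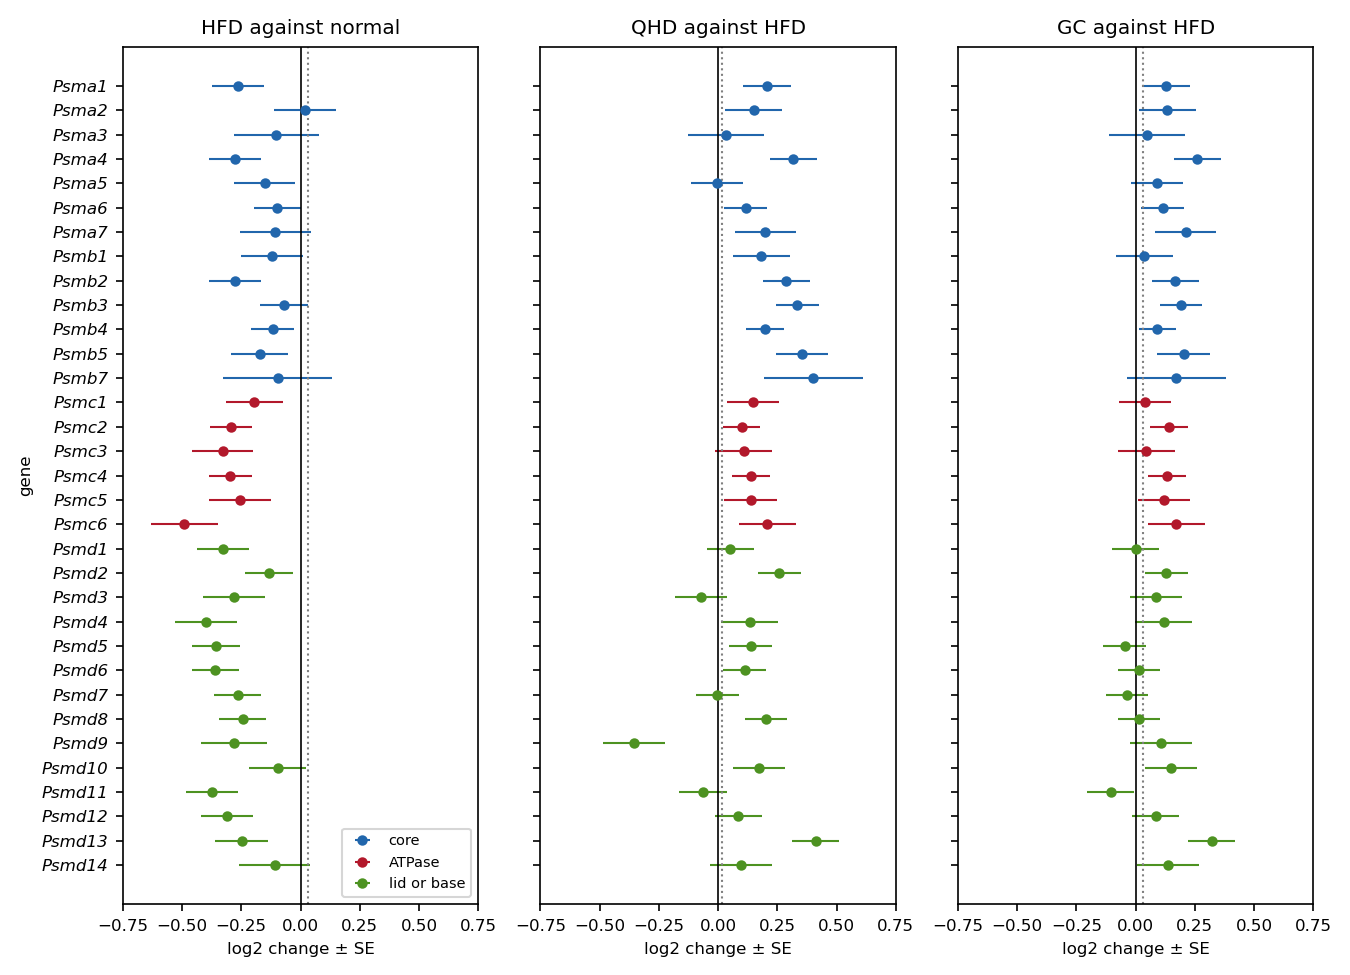
Points are log2 changes with the SE of limma for each subunit gene in 3 comparisons, coloured by class, and the dotted line is the median of all 9459 genes tested. In HFD against normal 32 of 33 points lie below 0, and in QHD against HFD 28 lie above it.

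Set against the HFD alone, most subunits read higher with QHD. The change was above 0 in 28 of 33 members, with a median of 0.14 against 0.02 for all genes, and class medians of 0.20 for the core, 0.14 for the ATPases and 0.10 for the lid or base. In 14 members (42.4%) all QHD arrays were above all HFD arrays, against 9.51% of all genes, and 1 (Psmd9) was entirely below, against 7.95%. No member passed with limma, against 0.56% of all genes, and 8 had an unadjusted p under 0.05 in the higher direction, against 6.79%, and 1 in the lower, against 5.95%. The 2 comparisons share the HFD arrays, so a low HFD reading enters both.

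Psmd13, a lid subunit, read 10.31 and 10.36 on the normal diet, 10.02, 10.23 and 10.01 on the HFD, 10.49, 10.40 and 10.61 with QHD and 10.49, 10.36 and 10.37 with GC. Every treated array was above every HFD array, by 0.41 ± 0.10 for QHD (adjusted p = 0.109) and 0.32 ± 0.10 for GC (adjusted p = 0.397). It was the largest QHD change among the members.

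Psmb3, a beta subunit without a proteolytic site, read 12.42 and 12.44 on the normal diet, 12.24, 12.45 and 12.39 on the HFD, 12.61, 12.65 and 12.82 with QHD and 12.52, 12.56 and 12.58 with GC. The 3 QHD arrays were the highest of the 11. The change was 0.33 ± 0.09 against the HFD (adjusted p = 0.131) and 0.26 ± 0.10 against the normal diet (adjusted p = 0.127).

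Psmb5, which carries the chymotrypsin-like site, read 12.53 and 12.24 on the normal diet, 12.25, 12.19 and 12.20 on the HFD, 12.61, 12.45 and 12.65 with QHD and 12.28, 12.55 and 12.42 with GC. All 6 treated arrays were above the 3 HFD arrays, by 0.36 ± 0.11 for QHD (adjusted p = 0.172) and 0.20 ± 0.11 for GC (adjusted p = 0.617). The normal diet arrays spanned both, so the HFD reading was not below them in full (-0.17 ± 0.12, adjusted p = 0.562).

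Psmb7 read 11.05 and 10.37 on the normal diet, 10.89, 10.56 and 10.39 on the HFD, 11.28, 10.91 and 10.86 with QHD and 11.08, 10.78 and 10.49 with GC. All groups overlapped, and the QHD change of 0.40 ± 0.21 had an adjusted p of 0.449. The remaining catalytic subunit, Psmb6, was not analysed here, because its probe set also carries the symbol Psmb6l1.

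Psma4, an alpha subunit, read 11.99 and 12.05 on the normal diet, 11.58, 11.92 and 11.73 on the HFD, 12.07, 12.05 and 12.05 with QHD and 11.99, 12.08 and 11.93 with GC. The 3 HFD arrays were the lowest of the 11, and the change was 0.32 ± 0.10 with QHD (adjusted p = 0.20) and 0.26 ± 0.10 with GC (adjusted p = 0.49). Psmb2, a beta subunit, read 12.65 and 12.80 on the normal diet, 12.32, 12.61 and 12.41 on the HFD, 12.65, 12.76 and 12.80 with QHD and 12.57, 12.66 and 12.62 with GC. QHD stood above the HFD in full, by 0.29 ± 0.10 (adjusted p = 0.232), and its mean was 12.74 against 12.72 on the normal diet. Psmd2, a large scaffold of the base, read 11.93 and 11.81 on the normal diet, 11.66, 11.68 and 11.87 on the HFD, 11.97, 11.98 and 12.04 with QHD and 11.86, 11.78 and 11.97 with GC. QHD stood above the HFD in full, by 0.26 ± 0.09 (adjusted p = 0.27).

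**Figure D3:**
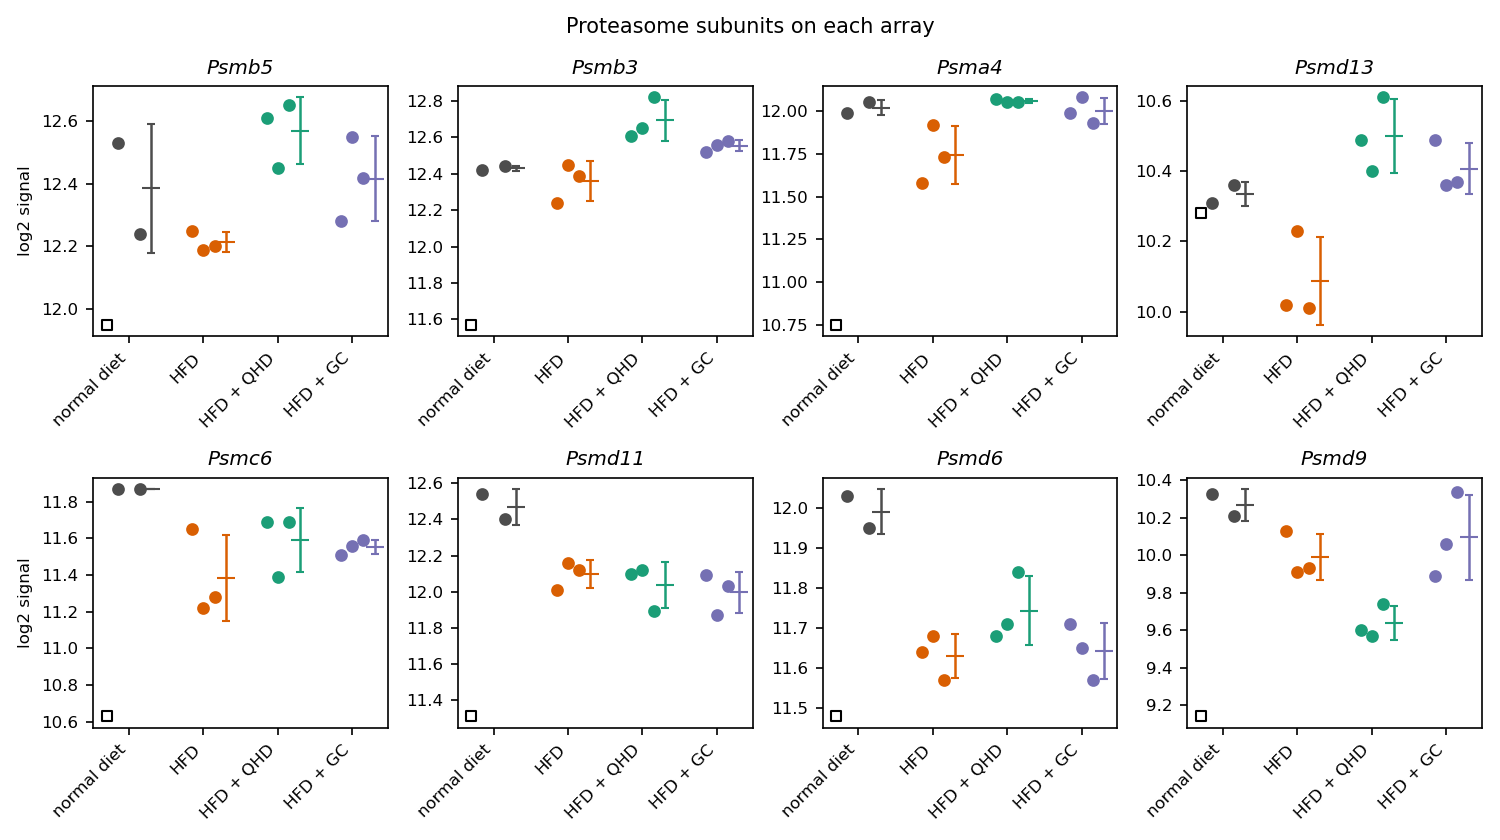
Log2 signals of 8 subunits on each array by group, with the mean and SD beside the points. The open square is the array labelled normal diet 3, which was left out of every mean. All 6 treated points of Psmb5 and of Psmd13 lie above the HFD points, and all 9 HFD-fed points of Psmd6 and Psmd11 lie below the filled normal diet points and above the open square.

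In GC against HFD most members read higher with GC, in a comparison that uses the same 3 HFD arrays as the one with QHD. The change was above 0 in 29 of 33, with a median of 0.12 against 0.03 for all genes, and class medians of 0.13, 0.13 and 0.08. All GC arrays were above all HFD arrays in 6 members (18.2%), against 7.66% of all genes, and 0 were below, against 5.85%. No member passed, against 0.0951% of all genes. At an unadjusted p under 0.05 there were 2 in the higher direction, against 4.21%, and 0 in the lower, against 4.56%. Without HFD 36 the count apart was 12, against 19.4% of all genes, and it was 10 without HFD 24, against 13.2%, and without GC 35, against 15.4%. It was 8 without HFD 87, GC 37 or GC 55, against 11.1%, 10.6% and 12.8%. Leaving out an array of either group can only keep or raise this count.

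QHD and GC, whose doses cannot be compared because the labels give none for GC, gave no member that passed against each other, while 0.275% of all genes did. The median difference was 0.04 against -0.01 for all genes, with 26 of 33 above 0. QHD was entirely above GC in 5 members (15.2%), against 9.17% of all genes, and Psmd9 entirely below, against 9.31%. At an unadjusted p under 0.05 there were 0 members in the higher direction, against 5.31%, and 1 (Psmd9) in the lower, against 4.67%. Psmd8, a lid subunit, read 12.20, 11.99 and 12.17 with QHD and 11.93, 11.93 and 11.94 with GC, a difference of 0.19 ± 0.09 (adjusted p = 0.497). It read 12.20 and 12.12 on the normal diet and 11.92, 11.98 and 11.86 on the HFD. Psmd5 was also entirely higher with QHD than with GC (0.18 ± 0.09, adjusted p = 0.533). An adjusted p that misses the threshold does not show that the treatments act alike.

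Psmd9, a chaperone of base assembly, was the only member entirely lower with QHD than with the HFD alone or with GC. It read 10.33 and 10.21 on the normal diet, 10.13, 9.91 and 9.93 on the HFD, 9.60, 9.57 and 9.74 with QHD and 9.89, 10.06 and 10.34 with GC. The 3 QHD arrays were the lowest of the 11. QHD differed by -0.35 ± 0.13 from the HFD (adjusted p = 0.271) and by -0.46 ± 0.13 from GC (adjusted p = 0.225). Against the normal diet Psmd9 fell by 0.63 ± 0.14 on the log2 scale (adjusted p = 0.0273). A second Psmd9 probe set had a mean of 6.65, just under the filter at 6.66, and the mean of both probe sets gave -0.39, which did not pass.

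Against the normal diet, few members passed in the treated livers, all in the lower direction. Their shares were near those of all genes called in either direction and above those of all genes called lower. With QHD, 2 of 33 members fell, against 2.7% of all genes called lower and 7.46% called in either direction. They were Psmd9 and Psmd11, the latter by -0.44 ± 0.11 (adjusted p = 0.0419). With GC, 3 fell, against 3.41% of all genes called lower and 9.61% called in either direction: Psmd11 by -0.48 ± 0.11 (adjusted p = 0.0242), Psmd5 by -0.40 ± 0.10 (adjusted p = 0.0307) and Psmd6 by -0.35 ± 0.10 (adjusted p = 0.0455). These calls depended on single arrays: both QHD calls were lost without normal diet 2, normal diet 4 or any QHD array, and that of Psmd11 also without HFD 87, GC 37 or GC 55. All GC calls were lost without normal diet 2, normal diet 4 or GC 37, and without GC 35 or GC 55 only that of Psmd11 was kept. Psmd6 also lost its call without HFD 87 or any QHD array. With normal diet 3 included, 0 members passed in either comparison.

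All QHD arrays were below both normal diet arrays in 12 members (36.4%), against 17.1% of all genes, and above them in 4, against 26.5%. For GC these counts were 13 (39.4%), against 17.3%, and 2, against 26.5%. The class medians were 0.06, -0.18 and -0.24 for QHD and -0.02, -0.16 and -0.23 for GC, in the order core, ATPase, lid or base. Over all members they were -0.06 and -0.13, and 0.05 for all genes in both comparisons.

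Psmd3, a lid subunit, read 10.61 and 10.44 on the normal diet, 10.32, 10.07 and 10.35 on the HFD, 10.32, 10.14 and 10.06 with QHD and 10.38, 10.28 and 10.33 with GC. No HFD-fed array reached the normal diet arrays, and QHD differed by -0.35 ± 0.13 (adjusted p = 0.112). Psmd7, a lid subunit that pairs with the deubiquitinase Psmd14, read 11.75 and 11.71 on the normal diet, 11.35, 11.49 and 11.55 on the HFD, 11.35, 11.56 and 11.47 with QHD and 11.43, 11.42 and 11.43 with GC. Its change was -0.27 ± 0.10 with QHD (adjusted p = 0.126) and -0.30 ± 0.10 with GC (adjusted p = 0.0855). Psmd1, the other large base scaffold, read 11.05 and 10.72 on the normal diet, 10.55, 10.50 and 10.63 on the HFD, 10.64, 10.57 and 10.62 with QHD and 10.57, 10.59 and 10.51 with GC. Normal diet 2 was well above all others, and GC differed by -0.33 ± 0.11 (adjusted p = 0.0937).

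Within arrays, the difference between core and lid or base genes set the normal diet arrays apart, while GC overlapped with both HFD and QHD. Taking each gene as its deviation from its own mean over 11 arrays, the core median minus the lid or base median was -0.19 and -0.17 on the normal diet. It was -0.11, 0.06 and -0.05 on the HFD, 0.07, 0.10 and 0.12 with QHD and -0.03, 0.13 and 0.05 with GC. Every HFD-fed array was above both normal diet arrays, and the QHD arrays were above all HFD arrays. Without the chaperones Psmd5, Psmd9 and Psmd10 the normal diet values were -0.16 and -0.15 and the QHD values 0.09, 0.10 and 0.12. After quantile normalization HFD 36, at 0.10, was above QHD 45, at 0.08, and the normal diet arrays were still the lowest. These are descriptions of a contrast seen in the data, with no test. HFD 36 differed from the other HFD arrays in the core, with a median of -0.01 against -0.19 and -0.20.

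**Figure D4:**
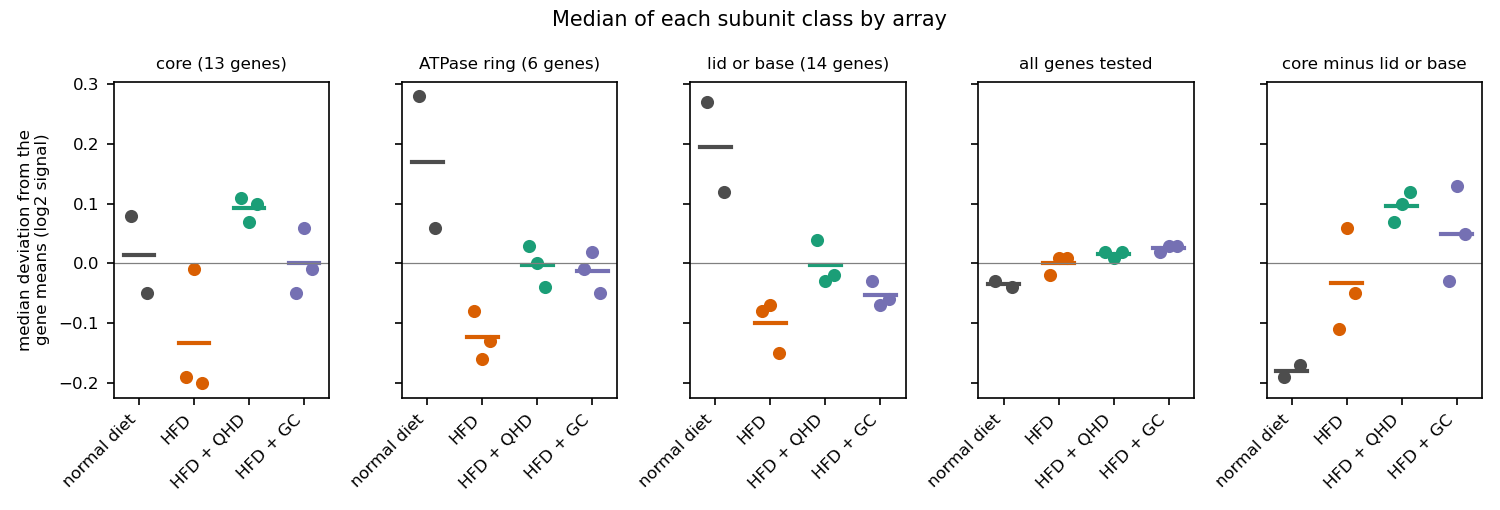
Points are the arrays and bars the group means. The vertical axis is the median over the genes of a class of the log2 signal minus the gene's mean, and the last panel is the core median minus the lid or base median. The normal diet arrays, at -0.19 and -0.17, are the lowest in that panel, and the panel of all genes tested stays within 0.04 of 0.

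A control of RNA integrity and several cell marker lists moved with the groups. The 3' minus 5' difference of the beta-actin control probe sets was 2.52 and 2.63 on the normal diet, 2.49, 2.10 and 2.48 on the HFD, 2.34, 2.21 and 2.01 with QHD and 1.98, 2.21 and 2.34 with GC. Every HFD-fed array, treated or not, lay below both normal diet arrays. The same difference for GAPDH overlapped between the groups, at 0.44 and 0.35, then 0.55, 0.33 and 0.63, then 0.36, 0.42 and 0.33, and then 0.34, 0.52 and 0.54. The summed signal of 11 macrophage and Kupffer cell markers was 34400 to 41700 on the normal diet, 39400 to 70500 on the HFD, 50300 to 59800 with QHD and 64000 to 67600 with GC, and no marker was at 0. All 11 had a change above 0 in HFD against normal, with a median of 0.65. So did all 10 stellate cell markers, with a median of 0.56 and sums of 9030 to 9770 against 5420 to 6470, 7 of 8 T and NK cell markers, and all 3 B and plasma cell markers, of which 1 passed. Of 14 hepatocyte markers, 0 were above 0 with QHD or with GC against the normal diet, with medians of -0.21 and -0.11, and the 7 endothelial markers had medians of -0.38 and -0.31. Hepatocyte markers above 0 numbered 2 in HFD against normal (median -0.05), 1 in QHD against HFD (-0.15) and 1 in GC against HFD (-0.09). The part of the RNA control and of these cell types in the subunit differences was not tested.

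For 4 members, probe sets above the filter differed in sign. Psmc6 had 3, and in QHD against HFD they gave 0.21, 0.15 and -0.20, each with SE 0.13 to 0.14. In GC against HFD the 2 of Psmd7 gave -0.04 and 0.12 and the 2 of Psmd11 gave -0.11 and 0.08, and in HFD against normal the 3 of Psmd14 gave -0.11, -0.27 and 0.02. Over all 39 member probe sets above the filter, 37 were below 0 in HFD against normal, and Psmd11 and Psmd9 (QHD) and Psmd11 and Psmd5 (GC) passed against the normal diet. For Psmd11 only the probe set with the highest mean passed. The other above the filter, with a mean of 11.98, gave -0.33 with QHD (limma adjusted p = 0.0878) and -0.21 with GC (adjusted p = 0.271).

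The inducible subunits took another course. Psmb8, Psmb9 and Psmb10 replace the constitutive catalytic subunits in the immunoproteasome, and with its activators Psme1 and Psme2 they had a median change of 0.68 in HFD against normal, -0.04 in QHD against HFD and 0.50 in GC against HFD, with 0 of 5 passing in each. Against the normal diet 4 of 5 rose with GC, where 586 of all 9459 genes were called higher and 9.61% in either direction. Psmb9 read 11.41 and 11.18 on the normal diet, 11.95, 13.62 and 12.29 on the HFD, 12.72, 12.70 and 12.31 with QHD and 13.74, 13.34 and 13.06 with GC, and rose by 2.09 ± 0.41 with GC against the normal diet (adjusted p = 0.0138). HFD 36 was far above the other HFD arrays. Psmb10 rose by 1.76 ± 0.39 (adjusted p = 0.0221) and Psmb8 by 0.98 ± 0.26 (adjusted p = 0.0405), with HFD 36 again the highest HFD array for both. Psme2 rose by 1.19 ± 0.23 (adjusted p = 0.0117).

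Among other genes of the pathway, 5 core assembly chaperones, 3 further core regulators, 7 attached receptors and deubiquitinases, 2 ubiquitin-activating enzymes, 11 shuttles and p97 partners and 10 genes around NRF1 and NRF2 were tested. In HFD against normal, QHD against HFD, GC against HFD and QHD against GC, 0 of them passed. Psmg2, a chaperone of core assembly, read 9.90 and 10 on the normal diet, 9.89, 9.97 and 9.98 on the HFD, 10.45, 10.19 and 10.52 with QHD and 10.27, 10.30 and 10.15 with GC, and differed by 0.44 ± 0.11 between QHD and HFD (adjusted p = 0.109). Pomp, which helps close the core, read 13.30 and 13.17, then 13.38, 13.37 and 13.24, then 13.58, 13.52 and 13.59, and then 13.41, 13.46 and 13.37 in the same group order, and rose by 0.33 ± 0.09 with QHD against the normal diet (adjusted p = 0.0476). Every QHD array was above every other array for Pomp. Sqstm1, the autophagy receptor p62, fell by 0.77 ± 0.13 with QHD against the normal diet (adjusted p = 0.00967), and Nfe2l2, the regulator NRF2, rose by 0.93 ± 0.24 with GC (adjusted p = 0.0372). The calls of Pomp, Sqstm1 and Nfe2l2 were not tried without single arrays or with normal diet 3. Nfe2l1 read 10.28 and 9.79 on the normal diet and 9.34, 9.81 and 10.09 on the HFD. With QHD it read 9.90, 9.56 and 9.58 and with GC 9.71, 9.86 and 10.11, and all groups overlapped. Usp14, a deubiquitinase bound to the proteasome, differed by -0.32 ± 0.11 in HFD against normal (adjusted p = 0.218).

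**Figure D5:**
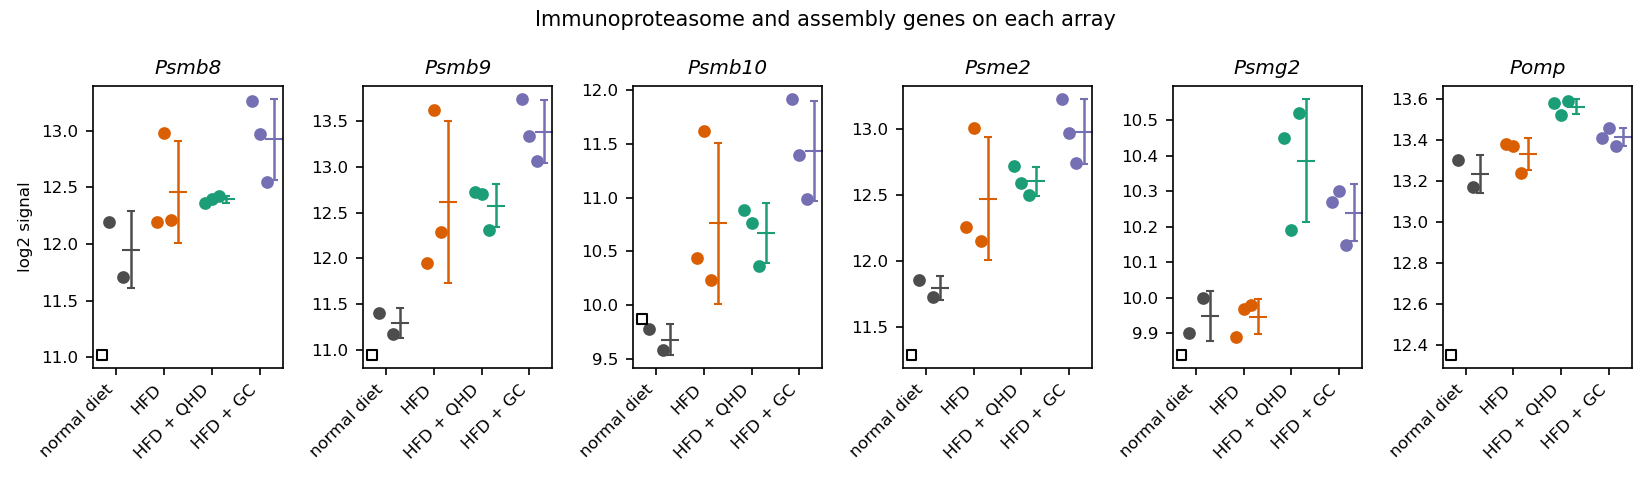
Log2 signals of 3 inducible subunits, an activator (Psme2) and 2 core assembly chaperones on each array, with the mean and SD beside the points and an open square for the array labelled normal diet 3. Psmb9 is highest with GC on average and HFD 36 stands at 13.62, while the QHD points of Pomp, 13.52 to 13.59, are above all others.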

How the data were processed

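Per the submitters' processing notes, the authors made the deposited log2 signals with Affymetrix Expression Console (MAS5), with no version stated. The values give each array a 2% trimmed mean linear signal of 500.2 to 500.3, and 2 deposited tables hold the same signals. The authors' deposited p-values and folds were not used. Of 31099 probe sets, 20832 had 1 symbol, and per gene the one with the highest mean over 11 arrays was kept. Genes entered the test with a mean above 6.66, the median log2 signal over all probe sets. Detection calls were not used here. A model with 1 mean per group was fitted with limma 3.58.1 in R 4.3.3 (eBayes, trend and robust; 7 residual degrees of freedom), and p was adjusted by Benjamini-Hochberg over 9459 genes, with a call at adjusted p under 0.05. The SE is that of limma. The code of the fit was checked on simulated data with independent noise for each gene. No power or error rate for the members is drawn from that check. Replicates are animals by the titles' numbers. The number of arrays limits the precision. The members, lists and motifs were chosen with earlier results of these data known. Values on every array are given for members that passed or had the 6 smallest p-values in a comparison, and for the catalytic subunits. From most related lists, genes that passed, or else some with the smallest p, are named. None is named from the further core regulators or the ubiquitin-activating enzymes, and Nfe2l1 is given because the background names it. Promoters come from RefSeq (GRCr8), read with Python 3.11.15, and figures were drawn with matplotlib 3.10.9. Alternatives were array weights, quantile normalization, other filters, probe-set means, an offset of 32, all 12 arrays and each array left out.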

Additional observations from a re-analysis of the deposited data

How the results depend on the processing

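Values are given as HFD against normal, QHD against normal and GC against normal unless named. With all 12 arrays the member medians were -0.02, 0.16 and 0.11, the counts lower without overlap 2, 0 and 0 (all genes 3.12%, 5.9% and 5.58%), and the calls against the normal diet 0 and 0 (all genes 0.0422% and 0.685%). Psmd5 then stood at 0.05 and Psmd11 at 0.02 in HFD against normal, and Psmd1 at 0.11 in GC against normal, each with its sign turned. The signal of the array labelled normal diet 3 enters these values. With array weights 2 members passed in HFD against normal (Psmc6, Psmd6), 4 in QHD against HFD (Psma4, Psmb2, Psmb3, Psmd13), 2 in GC against HFD (Psma4, Psmd13) and 1 in QHD against GC (Psmd9), while 2.82%, 4.59%, 6.97% and 1.96% of all genes passed. The calls in QHD against normal were 1 with quantile normalization (all genes 6.55%), 1 with no filter (4.05%), 0 with probe-set means (6.41%), 1 with groups compared alone (9.68%) and 1 with eBayes without trend and robust (5.91%). In GC against normal they were 2 with quantile normalization (8.04%), no filter (5.76%), probe-set means (8.74%) and eBayes without trend and robust (8.62%), and 1 with groups compared alone (10.8%), and the median was -0.08 with quantile normalization. With quantile normalization the counts lower without overlap were 16, 11 and 9, against 12.7%, 19.2% and 19.7% of all genes. The cause of these differences was not tested. Leaving out each array gave medians of -0.31 to -0.19, 0.13 to 0.16 (QHD against HFD), 0.09 to 0.12 (GC against HFD), 0.04 to 0.07 (QHD against GC), -0.14 to -0.03 and -0.22 to -0.06. Calls ranged 0 to 1, 0 to 0, 0 to 0, 0 to 0, 0 to 2 and 0 to 3 in that order (all genes 0.127% to 3.26%, 0.19% to 1.72%, 0% to 1.33%, 0.0635% to 0.625%, 1.43% to 11% and 1.73% to 13.5%), and counts without overlap 19 to 29, 14 to 18, 6 to 12, 5 to 10, 12 to 19 and 13 to 18 (all genes 10.8% to 24.5%, 9.53% to 18.2%, 7.65% to 19.4%, 9.16% to 15.6%, 17.1% to 28.6% and 17.3% to 28.4%). Leaving out an array can only keep or raise the counts without overlap. The alternatives on counts without overlap were chosen after seeing the data. No paired analysis was possible because the groups share no replicate numbers.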
